A study of Mus musculus with 10 samples.

Results

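The TGF-beta and SMAD pathway core comprised 10 genes, taken by symbol from a deposited table of 26146 genes: *Tgfb1*, *Tgfbr1*, *Tgfbr2*, *Tgfbr3*, *Smad2*, *Smad3*, *Smad4*, *Smad7*, *Ski* and *Skil*. All 10 passed the filter on low counts that left 14165 genes for testing. RNA was sequenced from hematopoietic stem cells (HSCs), sorted as LSK CD48-CD150+ bone marrow cells, of control and *Cited2* CKO mice on the C57BL/6J background, 8 to 12 weeks old, as 5 libraries of each genotype. Control mice are labelled wildtype and, per the methods of the study, carry *Cited2* fl/fl alleles without Cre (*Cited2* CTL, libraries WT1 to WT5). *Cited2* CKO mice are *Cited2* fl/fl;*Vav-iCre* (libraries KO1 to KO5), where the *Vav* promoter drives Cre in all blood lineages from the time HSCs first arise. Floxed alleles were thus common to both genotypes. Each library was 1 sample of sorted cells. The methods of the study state animals with an n of 5 for each genotype. Since the labels do not say that each library came from its own mouse, p-values measure the spread between these samples. The comparison asked whether the core genes of TGF-beta signaling were expressed at other levels in HSCs without *Cited2*.

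TGF-beta is secreted in a latent form and, once active, brings together the type II receptor TGFBR2 and the type I receptor TGFBR1, with TGFBR3 (betaglycan) as a co-receptor. The receptors phosphorylate SMAD2 and SMAD3, which enter the nucleus with SMAD4 and bind DNA beside other factors. SMAD7 blocks the activated receptor, and SKI and SKIL (SnoN) hold SMAD complexes in a repressed state. CITED2 binds the coactivators CREBBP and EP300 and acts as a coactivator of SMAD2 and SMAD3, and TGF-beta signaling is known for holding HSCs in quiescence.

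*Cited2* was read in every library first. It was at 101.3, 171.0, 162.0, 221.6 and 160.2 CPM (counts scaled to a TMM-normalized library total of 1000000) in WT1 to WT5, and at 3.80, 4.21, 5.00 and 8.30 CPM in KO1, KO2, KO4 and KO5. The library labelled KO3 held 120.1 CPM, within the control range, so it goes against its label for the deleted gene and results are given with and without it. For *Cited2* itself, edgeR gave an adjusted p of 0.328 over all libraries and of 1.82e-06 without that library (log2 fold change -2.51 and -4.92). *Cd48*, whose protein the sort excluded, lay between 14.4 and 27.4 CPM in controls and between 38.5 and 60.8 CPM in the 5 libraries labelled KO, KO3 included at 38.5 CPM (edgeR adjusted p = 0.0264). *Xist* was near 0 to 19.7 CPM in 6 libraries and between 1250 and 1316 CPM in WT2, WT4, KO2 and the library labelled KO3, and KO2 also held 118.7 CPM of the Y-linked gene *Ddx3y* although its *Xist* level was like that of WT2 and WT4. The labels do not say whether KO2 was pooled from several mice. The HSC markers *Procr*, *Slamf1* and *Mecom* were present in all libraries (at least 61.0 CPM), and the summed 12 HSC markers lay between 2215 and 2450 CPM in controls and between 1968 and 2267 CPM in the libraries labelled KO (two-sided exact permutation p = 0.0476). Summed mast cell and basophil markers lay between 73.9 and 125.4 CPM in controls and between 124.1 and 209.3 CPM in the libraries labelled KO (exact permutation p = 0.0159). The part of these differences in the members' values was not tested. Neither permutation p-value was adjusted for the number of gene lists summed. The other lists, controls included, gave exact permutation p-values between 0.0714 and 0.849. Totals of deposited counts lay between 3058690 and 4548795 per library, far fewer than the reads that the methods of the study describe, and where the other reads went is not given in the sources used here.

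No member passed the test between the genotypes, and each difference was within the spread of the libraries. By edgeR, 0 of 10 members were called (adjusted p under 0.05 and a fold change above 20%), against 0.226% of tested genes (32 genes), with adjusted p-values between 0.411 and 0.993. At an unadjusted p under 0.05, edgeR, DESeq2 and limma-voom each counted 0 of 10 members, where edgeR counted 5.8% of tested genes as higher and 7.08% as lower in *Cited2* CKO HSCs. DESeq2 called 0 members against 2.43% of the genes it tested, and its lowest adjusted p among members was 0.364. The log2 fold change (KO against WT) was positive for 7 members and negative for 3, with a median of 0.15 beside 0.01 over all tested genes. The CPM values of the genotypes overlapped for all 10 members, where they did not overlap for 3.33% of tested genes, and without the library labelled KO3 again for all 10, against 5.03%. In a bulk sample, fewer expressing cells and less RNA per cell cannot be told apart.

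**Figure D1:**
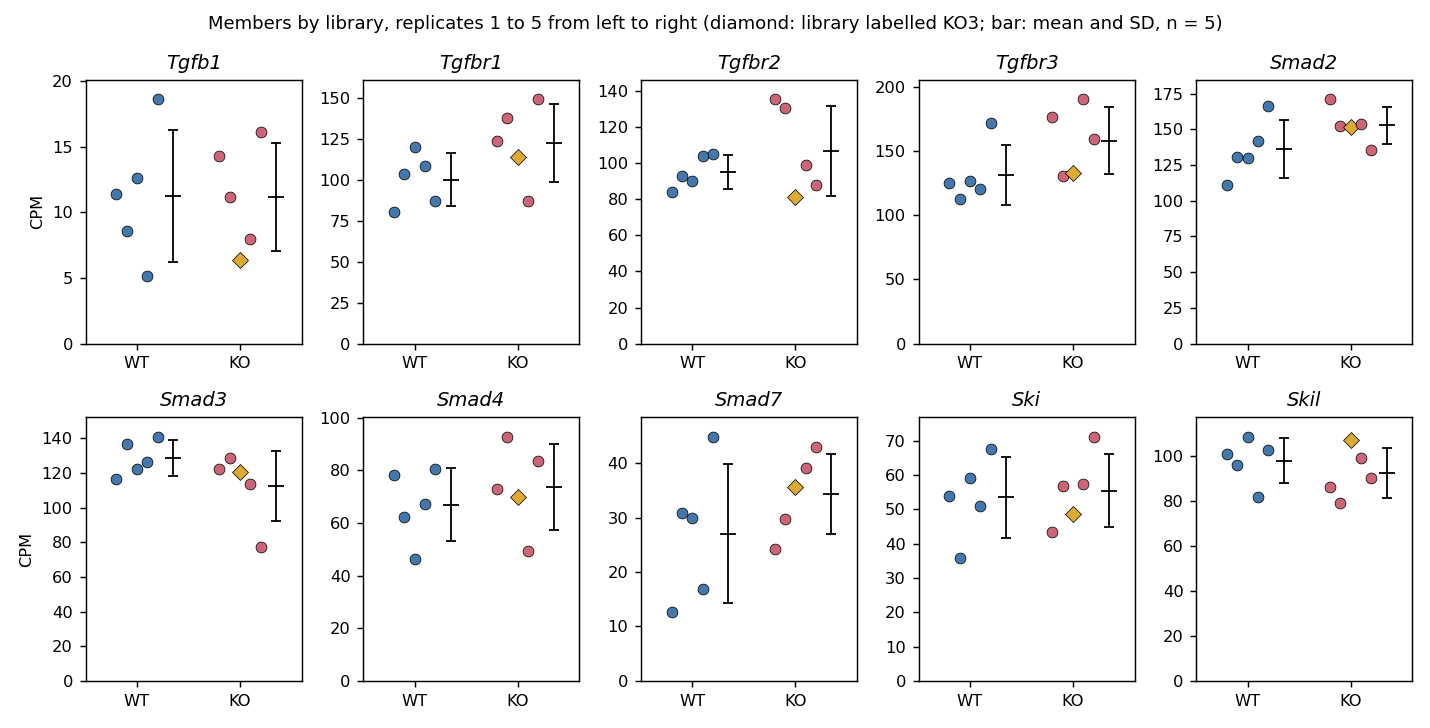
CPM of each member (y axis, from 0) in the 5 WT and 5 KO libraries, replicates 1 to 5 from left to right within a genotype, with the mean and SD (n = 5) beside the points and a diamond for the library labelled KO3. The points of the genotypes overlap in all 10 panels, *Smad3* in KO5 (77.2 CPM) is the lowest of its panel, and *Tgfb1* and *Smad7* spread widest relative to their means in WT.

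The ligand gene *Tgfb1* was the member with the fewest counts (21 to 85 per library). It was at 11.4, 8.59, 12.6, 5.12 and 18.6 CPM in WT1 to WT5 and at 14.3, 11.1, 6.38, 7.94 and 16.1 CPM in KO1 to KO5. Its lowest value was in WT4 and its highest in WT5, so that controls alone spanned 3.63-fold, and the KO values lay inside the control range. The means were 11.3 ± 5.02 CPM in WT and 11.2 ± 4.11 CPM in KO (SD, n = 5), a log2 fold change of -0.01 (SE 0.37). Its 95% interval ran from a 43.0% lower to a 72.6% higher level, so these libraries are compatible with changes anywhere within that range. The coefficient of variation among controls was 44.5%, where counting alone would give 15.2%. WT5 and KO5, where *Tgfb1* was highest, also had the highest summed neutrophil markers (616.8 and 402.3 CPM, against 139.0 to 271.0 CPM in the others). Of the 8 markers, 4 had their highest values in these libraries, *Mpo* (189.7 and 108.3 CPM), *Elane* (62.4 and 16.4 CPM), *S100a9* and *Ltf*, while *Prtn3*, *S100a8* and *Camp* did not. *Ly6g*, the remaining one and a marker of mature neutrophils, was at 0 in all libraries. Whether its reads could be counted is not given in the sources used here. The part of the neutrophil markers in the *Tgfb1* values was not tested.

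The 3 receptor genes had higher means in KO, and none passed the test. *Tgfbr1*, the type I receptor kinase, was at 80.6, 103.6, 120.2, 108.5 and 87.1 CPM in WT1 to WT5 and at 123.4, 137.8, 113.9, 87.3 and 149.1 CPM in KO1 to KO5. KO1, KO2 and KO5 exceeded every control, while KO4 was close to the lower controls. The log2 fold change was 0.29 (SE 0.14, 95% interval -0.01 to 0.60, edgeR adjusted p = 0.411), and the two-sided exact permutation test gave p = 0.111, where 5 against 5 libraries can reach 0.00794.

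*Tgfbr2*, the type II receptor that binds the ligand, was at 83.9, 92.7, 90.0, 104.3 and 105.2 CPM in WT1 to WT5 and at 135.5, 130.4, 81.3, 98.8 and 88.0 CPM in KO1 to KO5. KO1 and KO2 stood above all controls and the other three KO libraries lay among or below them, so the SD was 24.7 CPM in KO and 9.28 CPM in WT. The difference was 0.16 on the log2 scale (SE 0.14, edgeR adjusted p = 0.676).

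*Tgfbr3*, the co-receptor, was at 125.1, 112.9, 127.0, 120.9 and 172.0 CPM in WT1 to WT5 and at 176.8, 130.9, 133.1, 190.5 and 159.7 CPM in KO1 to KO5. All KO libraries exceeded 4 of the 5 controls, and WT5 stood apart from the other controls. The log2 fold change was 0.26 (SE 0.13, 95% interval -0.02 to 0.54, edgeR adjusted p = 0.422). Without the library labelled KO3 it was 0.32, and *Tgfbr3* was then the 1 member with an unadjusted p under 0.05 (0.0331, edgeR adjusted p = 0.378), in a direction in which 5.19% of tested genes passed that limit. Its annotated exons share 297 bases with the gene model *Gm43422* on the same strand. That gene model has no row in the table used, and how reads from those bases were counted is not given in the sources used here.

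The receptor-regulated SMADs had mean differences of opposite sign, and neither passed the test. With an offset for GC content and length, described with the fold changes, both log2 fold changes were negative (-0.04 for *Smad2* and -0.11 for *Smad3*). *Smad2* was at 111.0, 130.8, 130.2, 142.1 and 166.7 CPM in WT1 to WT5 and at 171.1, 152.1, 151.5, 153.7 and 135.3 CPM in KO1 to KO5. *Smad3* was at 116.4, 136.9, 122.3, 126.5 and 140.9 CPM in WT1 to WT5 and at 122.4, 128.4, 120.5, 113.5 and 77.2 CPM in KO1 to KO5. KO5 was the lowest library for *Smad3* and also the lowest KO library for *Smad2*. For *Smad3*, KO4 was just below the control range, and the remaining KO libraries lay within it. The log2 fold changes were 0.16 for *Smad2* (SE 0.10, edgeR adjusted p = 0.543) and -0.20 for *Smad3* (SE 0.12, edgeR adjusted p = 0.536). For *Smad3*, the 95% interval reached from a 27.3% lower to a 4.75% higher level, and without KO5 the log2 fold change was -0.10.

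Of the 45 pairs of members, 1 had log2 ratios that did not overlap between the genotypes, the ratio of *Smad2* to *Smad3*, which was singled out after its values were seen. The log2 ratio of CPM was -0.07, -0.07, 0.09, 0.17 and 0.24 in WT1 to WT5 and 0.48, 0.24, 0.33, 0.44 and 0.81 in KO1 to KO5. WT5 and KO2 both rounded to 0.24, and the means differed by 0.39. A share of 2.22% of pairs is below the 2.92% of all pairs of tested genes that did not overlap, so it is no result about the members, and with an offset for GC content and length (described with the fold changes) the ratios overlapped with a difference of 0.08. Without the library labelled KO3 the ratio of *Tgfbr2* to *Smad3* did not overlap either, making 2 of 45 pairs, against 4.66% of all pairs. With the offset the 1 pair without overlap was *Smad7* to *Skil*, against 1.8% of all pairs.

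*Smad4*, the common partner of the receptor-regulated SMADs, was at 78.3, 62.4, 46.5, 67.3 and 80.5 CPM in WT1 to WT5 and at 72.7, 92.8, 69.7, 49.4 and 83.7 CPM in KO1 to KO5. Both genotypes had 1 library near 50 CPM, WT3 and KO4, and KO2 was the highest. The log2 fold change was 0.14 (SE 0.18, edgeR adjusted p = 0.787).

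*Smad7*, the inhibitory SMAD and a feedback target of the pathway, was at 12.7, 30.8, 30.0, 16.8 and 44.9 CPM in WT1 to WT5 and at 24.2, 29.7, 35.7, 39.1 and 42.9 CPM in KO1 to KO5. WT1 and WT4 were lower than every KO library, while WT5 was the highest of all 10. The coefficient of variation was 47.2% in WT and 21.6% in KO, where counting alone would give 9.66% at the mean WT count. The log2 fold change of 0.33 (SE 0.29, 95% interval -0.29 to 0.95) was the largest of the members and did not pass (edgeR adjusted p = 0.674). It was 0.60 without WT5 and 0.15 without WT1.

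The repressor genes *Ski* and *Skil* showed differences near 0. *Ski* was at 53.8, 35.9, 59.1, 50.9 and 67.6 CPM in WT1 to WT5 and at 43.3, 56.9, 48.7, 57.3 and 71.2 CPM in KO1 to KO5. *Skil* was at 101.0, 96.0, 108.8, 81.9 and 102.8 CPM in WT1 to WT5 and at 86.5, 79.4, 107.5, 99.1 and 90.3 CPM in KO1 to KO5. For both genes the KO values fell among the control values, except that KO5 was highest for *Ski* and KO2 lowest for *Skil*. The log2 fold changes were 0.05 for *Ski* (SE 0.17, edgeR adjusted p = 0.929) and -0.08 for *Skil* (SE 0.11, edgeR adjusted p = 0.791). *Skil* had a narrow interval, from a 19.4% lower to a 10.6% higher level.

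**Figure D2:**
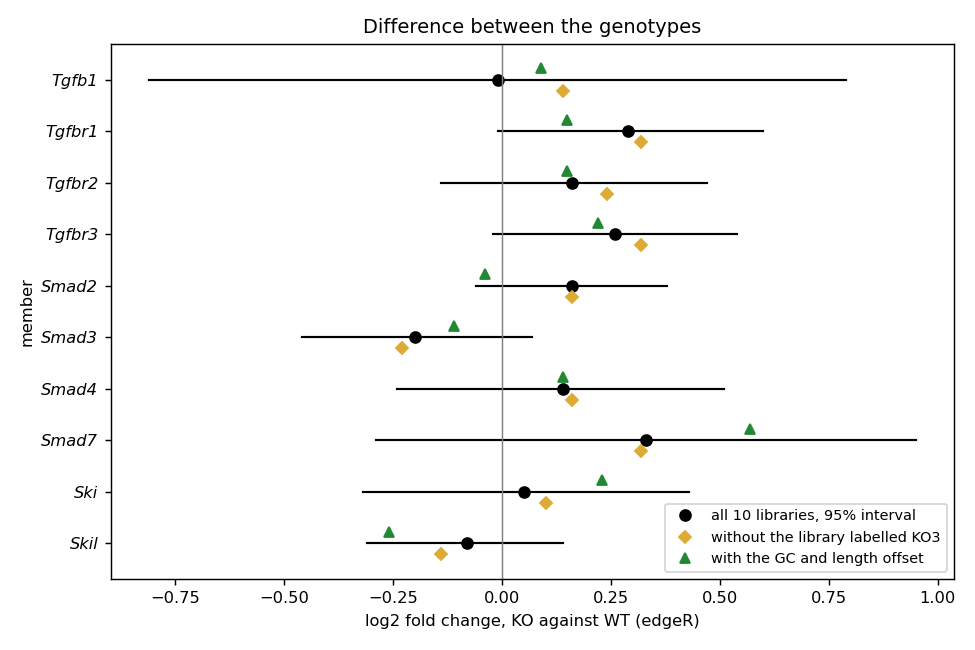
Log2 fold change of KO against WT (x axis) for each member (y axis): circles with lines are the edgeR estimate and 95% interval over all 10 libraries, diamonds leave out the library labelled KO3, and triangles add the GC and length offset. Every interval crosses 0, and the triangle lies across 0 from the circle for *Smad2* (0.16 and -0.04) and *Tgfb1* (-0.01 and 0.09).

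GC content moved with the genotype difference over all tested genes. The Pearson correlation of GC content and log2 fold change across tested genes was -0.36, a description over genes, which are not independent replicates. An offset fitted to each library for the GC content and length of the genes was therefore added to the comparison. With it, *Smad2* went from 0.16 to -0.04 and *Tgfbr1* from 0.29 to 0.15, whose GC contents are 44.9% and 41.0%. In the other direction *Smad7*, with 56.9% GC, went from 0.33 to 0.57 (edgeR adjusted p = 0.725), and *Ski*, with 55.6% GC, from 0.05 to 0.23. *Skil*, with 41.0% GC, went from -0.08 to -0.26. *Tgfbr2* and *Smad4*, close to the median GC content of 48.8%, were at 0.15 and 0.14 with the offset. None of the members was called with it. GC content and length entered the offset together, so their parts in these shifts cannot be told apart, and *Smad2* is also the longest member (9142 bases). The source of the GC relation was not tested.

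Sex did not bring a member past the test either. Among the 6 libraries without *Xist* (WT1, WT3, WT5, KO1, KO4 and KO5), *Tgfbr1* was at 0.32, *Tgfbr3* at 0.31, *Smad2* at 0.17 and *Smad3* at -0.28 on the log2 fold change scale, and the lowest unadjusted p among members was 0.0602 for *Tgfbr3* (edgeR adjusted p = 0.695). With 3 libraries on each side, these values carry a larger error than those of all 10.

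Levels were compared between genes per kilobase of the deposited gene length. In WT, *Smad3* had the highest level at 25.3 ± 2.00 CPM per kilobase (SD, n = 5). *Tgfbr3* followed at 21.7 ± 3.84, *Smad4* at 20.1 ± 4.11, *Tgfbr2* at 19.9 ± 1.94 and *Tgfbr1* at 17.7 ± 2.84 CPM per kilobase. *Smad2* and *Skil* were at 14.9 ± 2.23 and 14.6 ± 1.51, *Ski* at 9.78 ± 2.14, *Smad7* at 6.09 ± 2.87 and *Tgfb1* at 5.38 ± 2.40 CPM per kilobase. No neighbours in this order were separated in range. The highest *Ski* library in WT (12.4 CPM per kilobase) was above the lowest for *Skil* (12.2), although *Skil* exceeded *Ski* within each of the 5 WT libraries. By this measure *Smad3* lay above 62.6% of tested genes and *Tgfb1* above 28.2%, with *Cited2* at 82.9 ± 21.7 CPM per kilobase in WT above 92.1%. In KO the first places went to *Tgfbr3* (26.1 ± 4.35), *Tgfbr2* (22.3 ± 5.16) and *Smad3* (22.1 ± 4.01 CPM per kilobase), with overlapping ranges of 1 SD, while the places from *Tgfbr1* downwards were as in WT.

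**Figure D3:**
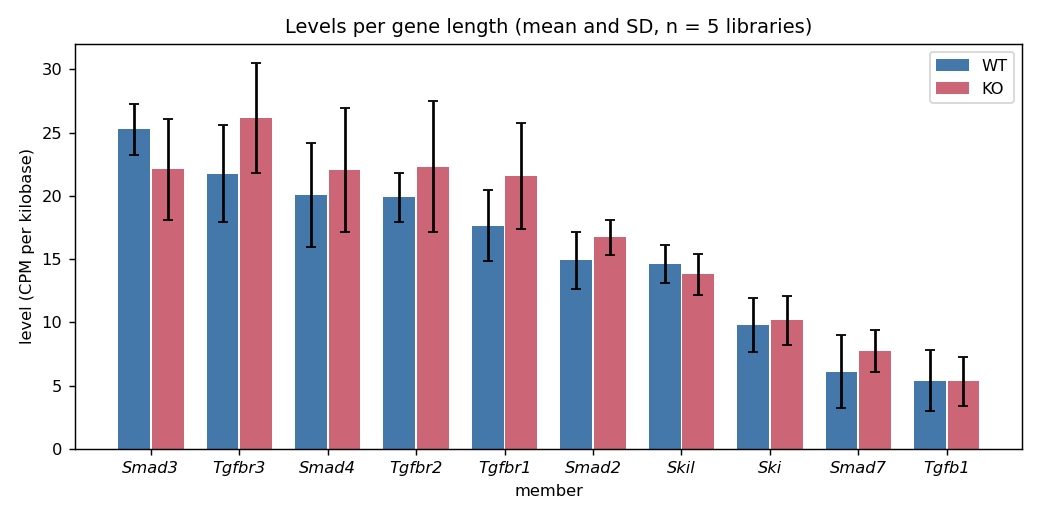
Level per gene length (y axis, CPM per kilobase, bars from 0) of each member in WT and KO, as mean and SD over 5 libraries, ordered by the WT level. Ligand and inhibitory SMAD are at the low end (5.38 and 6.09 in WT) and *Smad3* is at the high end (25.3), with SD bars that overlap between the genotypes for every member.

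Promoters are shown because SMAD3 and SMAD4 bind the SMAD-binding element of DNA. RefSeq promoters (GRCm38.p6, the 250 bases upstream of each start) were read for 5 of the 10 members, *Tgfb1*, *Tgfbr1* with a pair of starts, *Tgfbr2*, *Smad3* and *Ski*, and those of *Tgfbr3*, *Skil*, *Smad2*, *Smad4* and *Smad7* were not analysed here. The letters CAGAC were searched on both strands (CAGAC or GTCTG), together with the palindrome GTCTAGAC, which contains neither form. CAGAC matched in 2 of these 6 promoters, *Tgfbr2* and the downstream start of *Tgfbr1*, and 42.2% of the 32851 promoters in the table hold a match in the same window of 250 upstream bases. The palindrome matched in 0 of the 6, and in 0.167% of all. The upstream bases of *Tgfbr2* (chr9:116175364-116175613, minus strand) with its match in capitals, and of *Smad3* (chr9:63757995-63758244, minus strand), which has none, read 5′ to 3′:
Tgfbr2: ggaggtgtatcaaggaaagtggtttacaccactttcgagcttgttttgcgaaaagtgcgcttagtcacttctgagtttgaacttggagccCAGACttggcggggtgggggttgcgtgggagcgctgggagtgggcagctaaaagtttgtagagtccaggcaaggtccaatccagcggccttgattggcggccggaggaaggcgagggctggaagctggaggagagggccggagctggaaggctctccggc
Smad3: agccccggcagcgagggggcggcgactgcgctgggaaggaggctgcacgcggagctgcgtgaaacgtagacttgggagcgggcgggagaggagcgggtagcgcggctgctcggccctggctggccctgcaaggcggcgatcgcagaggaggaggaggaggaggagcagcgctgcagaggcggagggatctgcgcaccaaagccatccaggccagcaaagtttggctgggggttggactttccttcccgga
A match is a description of the letters, and no binding was measured. The gene bodies of these 2 members lie at chr9:116084293-116175360 (*Tgfbr2*) and chr9:63646767-63757994 (*Smad3*), both on the minus strand of GRCm38 in the GENCODE annotation.

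Around the core, lists of 139 other genes of the pathway were counted, of which 138 were in the table and 115 were tested. By edgeR, 0 of the 115 were called, against 0.226% of all tested genes, and at an unadjusted p under 0.05 there were 13 higher (11.3%) and 12 lower (10.4%), beside 5.8% and 7.08% of all tested genes. With the GC and length offset there were 9 higher and 3 lower, beside 3.39% and 3.65% of all tested genes. In both counts the lower genes include *Cited2*, the deleted gene. The median log2 fold change was 0.03. DESeq2 called 8 of them, against 2.43% of all genes it tested, with *Acvr1c*, *Fbxw7* and *Usp9x* as higher and *Ltbp3*, *Wwp2*, *Cdkn1c*, *Gadd45b* and *Tgm2* as lower. In the same lists without the library labelled KO3, DESeq2 called 6 genes, including *Cited2* itself, against 2.37% of all genes it tested, and *Fbxw7*, *Wwp2* and *Tgm2* were also among the 8. The lists were chosen with earlier results of these data known. Counts of list genes, here and for the single lists, are therefore descriptions and no test of the pathway.

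Counts for the single lists are given at the same unadjusted limit, since edgeR called none of their genes. Over all tested genes, 5.8% were higher and 7.08% lower at that limit. Among 13 tested ligands and activators, 1 was higher and 2 lower, with *Ltbp3*, a latent TGF-beta binding protein, at 42.4 ± 3.97 CPM in WT and 27.3 ± 6.95 CPM in KO (SD, n = 5, log2 fold change -0.63, edgeR adjusted p = 0.164). Its ranges did not overlap (35.8 to 46.4 CPM in WT and 17.1 to 35.6 CPM in KO). The genotypes did not overlap for 8 of the 115 tested list genes, *Ltbp3* included, against 3.33% of all tested genes. With the GC and length offset the log2 fold change of *Ltbp3* was -0.40. *Ltbp1* was at 0.70 and the ligand gene *Tgfb3*, with few counts (at most 70), at -1.42. *Tgfb3* was at 11.1 CPM in the library labelled KO3 and between 0.691 and 5.29 CPM in the other KO libraries, and without that library it was at -2.18 (edgeR adjusted p = 0.185), which DESeq2 called (adjusted p = 0.025). Among 10 tested receptors 1 was higher and 2 lower. They were *Acvr1c* at 1.59, *Eng* (endoglin) at -0.23 and *Acvr2b* at -0.94. *Acvr1c* overlapped between the genotypes, at 4.68 to 14.1 CPM in WT and 5.99 to 42.1 CPM in KO (edgeR adjusted p = 0.176). *Acvr2b* overlapped as well (edgeR adjusted p = 0.330). With the GC and length offset these 2 genes were at 1.24 and -0.77. *Eng* lay between 277.9 and 321.6 CPM in WT and between 235.4 and 271.4 CPM in KO (edgeR adjusted p = 0.176), and with the GC and length offset its log2 fold change was 0.01.

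Among 11 tested SMADs and adaptors, 0 were higher and 1 lower, *Hgs* at -0.34, followed by *Stub1* at -0.17 and *Strap* at 0.14. With the GC and length offset they were at -0.08, 0.09 and 0.03, so that *Stub1* changed sign. Of the 17 ubiquitin ligases, proteases and phosphatases, 3 were higher and 1 lower. *Ppp2r2a* was at 213.7 ± 14.4 CPM in WT and 254.3 ± 7.44 CPM in KO (edgeR adjusted p = 0.117), *Fbxw7* had a log2 fold change of 0.70 (edgeR adjusted p = 0.130) and *Wwp2*, a ligase of SMADs, one of -0.36 (edgeR adjusted p = 0.145). With the offset the log2 fold changes were 0.12 for *Ppp2r2a*, 0.61 for *Fbxw7* and -0.18 for *Wwp2*. Of 24 nuclear partners, 4 were higher and 1 lower, the last being *Cited2*. *Ncor1* was at 0.25, *Tcf12* at 0.27 and *Sp1* at 0.34, each with an edgeR adjusted p of at least 0.210, and with the offset at 0.12, 0.13 and 0.13. The coactivator genes that CITED2 binds had values near 0, *Crebbp* with 109.0 ± 29.2 CPM in WT and 108.6 ± 29.7 CPM in KO, and *Ep300* with a log2 fold change of 0.10 (SE 0.14).

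Target genes of the pathway had 2 higher and 4 lower of 24 tested, beside 5.8% and 7.08% of all tested genes. With the GC and length offset they had 3 higher and 1 lower, beside 3.39% and 3.65% of all tested genes. The control list of immediate early genes had 1 higher and 3 lower of 14 tested, and with the offset 0 higher and 1 lower. *Tgm2*, transglutaminase 2, was at 219.4, 249.6, 247.8, 228.4 and 181.4 CPM in WT1 to WT5 and at 167.6, 169.5, 173.7, 172.9 and 171.4 CPM in KO1 to KO5. Its genotypes did not overlap, as for 3 of the 24 tested target genes, against 3.33% of all tested genes. The edgeR adjusted p of *Tgm2*, 0.0715 (log2 fold change -0.40, SE 0.08), was the lowest of all lists. *Cdkn1c*, encoding the cell cycle inhibitor p57, was at 57.2 ± 5.21 CPM in WT and 41.3 ± 5.69 CPM in KO (SD, n = 5), without overlap and at an edgeR adjusted p of 0.147. *Gadd45b* was at 19.5 ± 4.62 CPM in WT and 9.81 ± 3.23 CPM in KO (edgeR adjusted p = 0.152). The 2 higher genes were *Tgfbi* and *Id2*, each with a log2 fold change of 0.52, and the remaining lower gene was *Myc* at -0.26. Whether the pathway raises or lowers each listed gene was not taken into account, so these counts give no direction of pathway output. With the GC and length offset the log2 fold changes were -0.16 for *Tgm2* and -0.21 for *Cdkn1c*, and -0.80 for *Gadd45b*. Without the library labelled KO3, *Tgm2* was at -0.40 (edgeR adjusted p = 0.0955), and without WT5 at -0.47, when it was called (edgeR adjusted p = 0.0172). Of the 16 genes of the alternative branches, 2 were higher and 1 lower, *Tab2* at 0.39, *Mapk8* at 0.40 and *Map2k3* at -0.22. With the offset 0 of the 16 passed that limit in either direction, and the values were 0.36, 0.21 and -0.06. In the libraries without *Xist*, *Mapk8* was at 0.10 and *Map2k3* at -0.11.

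**Figure D4:**
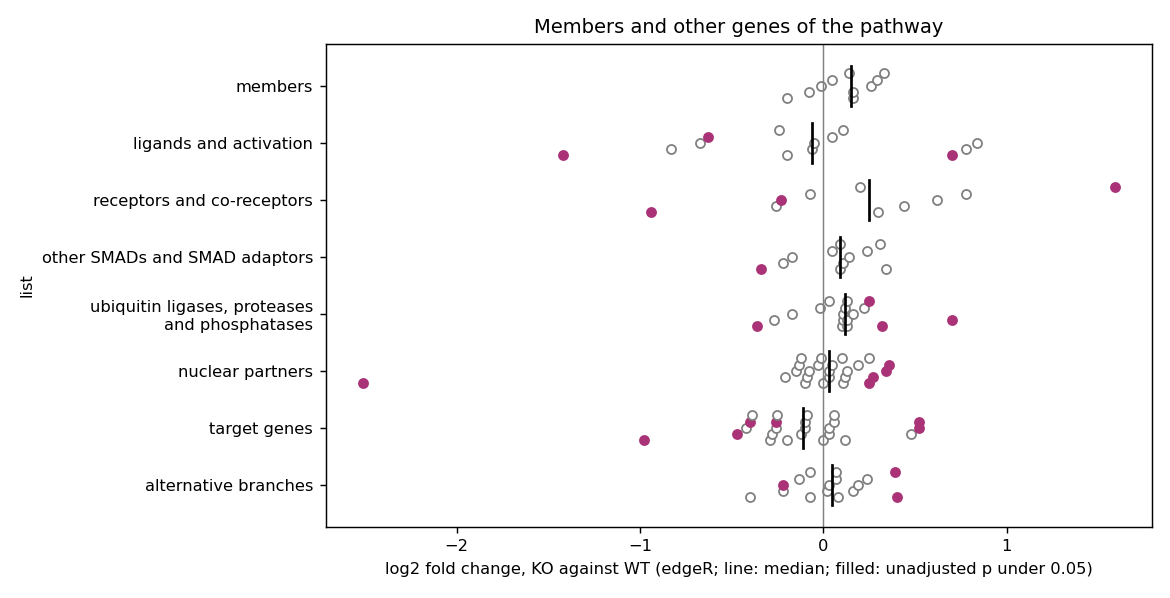
Log2 fold change of KO against WT (x axis, edgeR) of each tested gene in the members and the 7 other lists (y axis), with a line at each list's median and filled points for an unadjusted p under 0.05. The members hold 0 filled points and lie between -0.20 and 0.33, the other lists hold 25 filled points, and the point at -2.51 among nuclear partners is *Cited2*.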

How the data were processed

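Reads were aligned by the authors to mm10 with HISAT2 and counted per gene with Rsubread, and the deposited values are whole-number counts per gene, not normalized, beside each gene's length. Annotation, strand use and multi-mapping reads are not given in the sources used here. Counts were analysed with edgeR 4.0.16 (R 4.3.3): filterByExpr, TMM, quasi-likelihood F test, Benjamini-Hochberg over 14165 genes. The authors used DESeq2, here an alternative (1.42.0), with limma-voom (3.58.1), sva (3.50.0), other filters and normalizations, each library left out, a GC and length offset (loess, GENCODE, 97.0% of genes with a GC content), *Xist* as a covariate and the replicate number as a block. On simulated data with 200 changed genes the fit recovered 199, with 9 false calls among 13632 genes. Recovery of differences as small as those of the members was not tested. Precision is lowest for genes with few counts.

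The members and lists were chosen with earlier results of these data known. Named genes were *Cited2*, the members, *Crebbp*, *Ep300* and the 3 tested genes of each list with the smallest p. *Usp9x*, *Tgfbi*, *Id2*, *Myc*, *Cd48*, marker genes, sex-linked genes and the pair *Smad2* and *Smad3* were named after their values were seen. The offset and DESeq2 without KO3, and the libraries without *Xist*, were added after the data were seen. Groups came from the labels.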

Additional observations from a re-analysis of the deposited data

Results flagged for a closer look

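Each genotype held 1 value that stood far from the rest of its 5 libraries by Dixon's test. The test flags about 1 in 20 groups by chance, and more than 1 gene was searched. *Tgfbr3* in WT5 was at 172.0 CPM, where the other controls lay between 112.9 and 127.0 CPM. *Cited2* in the library labelled KO3 was at 120.1 CPM, where the other KO libraries lay between 3.80 and 8.30 CPM.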

How the results depend on the processing

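No member was called under any of the 26 alternatives. Among these, an adjusted p under 0.01 and no fold change limit, both on the main fit, could not call a member (lowest edgeR adjusted p 0.411). Of 240 member log2 fold changes, 222 kept their direction. The other 18 reversed. For *Tgfb1* the reversed values were 0.001 with at least 10 counts in every library, 0.04 with limma-voom, 0.02 with the replicate block and with 1 surrogate variable, 0.09 with the GC and length offset, 0.12 with that offset and the block, 0.01 with *Xist* as a covariate, 0.24 with the offset and 0.14 with DESeq2 without the library labelled KO3, and its range over single libraries left out was -0.2 to 0.25. For *Smad2* they were -0.04 with the offset and -0.03 with the offset and the block. For *Ski* they were -0.07 in the libraries without *Xist*, and its range over single libraries left out was -0.07 (without WT2) to 0.15. The causes were not tested.

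All genes called, 32 in the main comparison, were 338 with DESeq2 and 328 without the library labelled KO3, 50 with 1 surrogate variable, 8 with the offset, 11 with the offset and the block, 5 in the libraries without *Xist* (fewer samples), 8 at an adjusted p under 0.01, and between 8 (without KO2) and 42 (without KO3) over single libraries left out, with 10 to 16 without WT1, WT2, WT3, WT4, KO1 or KO5. Pathway list genes called, 0 in the main comparison, were 8 and 6 with DESeq2 with all libraries and without KO3, and 1 with limma-voom, with the offset without KO3, in the libraries without *Xist* and without KO3 (*Cited2* each time) and without WT5 (*Tgm2*, adjusted p = 0.0172), so 0 to 1 over single libraries left out. The replicate block called 24 genes and 0 members. Libraries with the same number had correlations between -0.095 and 0.208 and only WT5 matched its own number best, so the numbers were not treated as pairs. Without division by length, *Smad2* went from place 6 to 1 in the order of WT levels and *Smad3* from 1 to 3. *Tgfb1* has the lowest counts, 21 to 85.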
